A study of Homo sapiens with 2 samples.

Results

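The MYC and MAX network genes were examined for peaks of LSD1 (KDM1A), a demethylase of mono- and dimethylated histone H3 lysine 4 that works in corepressor complexes. The members were 10 named genes, MYC, MYCN, MYCL, MAX, MXI1, MXD1, MXD3, MXD4, MNT and MLX, out of 20163 protein-coding genes of GENCODE on hg19. For each of them, every peak that shared at least 1 base with the gene was taken, together with the nearest peak on each side. The members held 21 peaks and had 20 flanking ones, out of 20110 peaks in the list. The study measured 1 LSD1 chromatin immunoprecipitation library (ChIP-seq, antibody ab17721 from Abcam) and 1 input DNA library of PC-3M-luc cells, a metastatic subline of the prostate cancer line PC-3 that carries luciferase and grows without androgen. Both libraries carried the genotype label Control and came from passages 17 to 20. Since each arm was a single library, the values below carry neither a replicate error nor a p-value. Input signal, read depth and copy number were not analysed here. The score of a peak is the authors' value, taken to be a transformed p-value of the peak caller, and it serves only to rank peaks within this list. Where a gene is said to have no peak, none reached the threshold of the deposited list, and binding below that threshold is not covered.

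Proteins of this network are basic helix-loop-helix leucine zipper factors that pair with each other and bind the E-box, whose core is CACGTG. MYC, MYCN and MYCL pair with MAX and mostly activate genes of growth, while the MXD proteins and MNT compete for MAX and repress the same kind of target by bringing in SIN3 and histone deacetylases. MLX is the partner of a parallel branch that includes the glucose-responsive factors MLXIP and MLXIPL, and it also pairs with some MXD proteins and with MNT.

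LSD1 peaks lay over the start sites of MAX, MLX, MNT, all 4 MXD genes and MYCL, and none lay in MYC or MYCN or closer than 66034 bp to either gene. Of the 10 members 8 had at least 1 peak in the gene, while 61.2% of all protein-coding genes did. The same 8 members had their canonical transcription start site (TSS, the start of the Ensembl canonical transcript) under a peak, or 80.0% with an exact binomial 95% interval of 44.4% to 97.5%. Among all coding genes 54.3% of canonical starts were under a peak. All 10 members had a CpG-rich promoter, defined over the 1000 bp centred on the start by more than 55% GC and an observed-to-expected CpG ratio above 0.65. Among CpG-rich starts 75.9% were under a peak, so the count of 8 is near what genes of this promoter type showed, and among CpG-poor starts 26.0% were. A peak midpoint lay within 1 kb of an annotated start at 8 members, against 54.6% of coding genes. Of the members 6 had 2 or more peaks in the gene, a number reached by 23.6% of coding genes. All 6 were longer than 10 kb, and this share was not counted by gene length or promoter type.

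**Figure D1:**
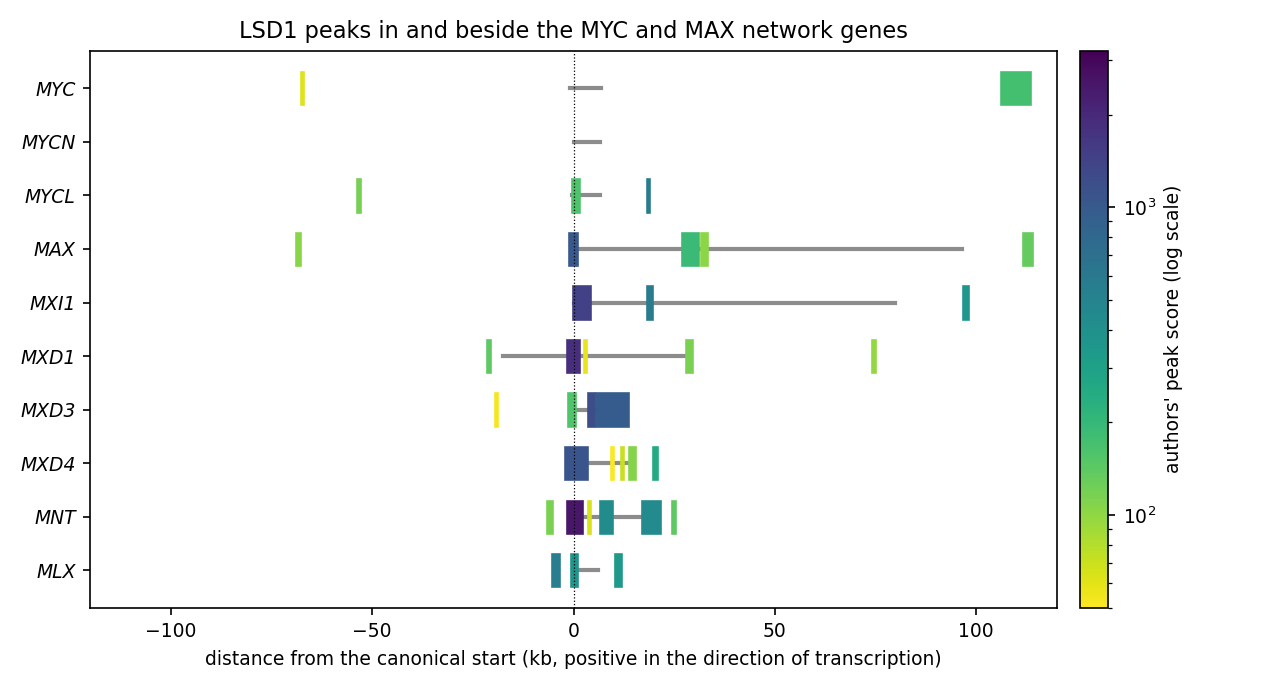
Peaks in each gene and the nearest peak on each side, by distance from the canonical start (kb, positive in the direction of transcription). Grey lines are genes, boxes are peaks drawn to scale and colour is the authors' score on a log scale; boxes cross the dotted line at 8 genes, MYC shows only distant peaks, and flanking peaks beyond the axis, both of MYCN and 1 each of MXI1, MXD3 and MXD4, are not drawn.

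The share of genes with a peak differed with gene length. Among coding genes shorter than 10 kb 44.4% had a peak in the gene, and among those of 10 kb or more 67.2% did. MYC (7518 bp), MYCN (6458 bp), MYCL (6829 bp) and MLX (6168 bp) belong to the short class and the other members, from 11297 bp at MXD3 to 96522 bp at MAX, to the long one. All members of the long class had a peak, and MYCL and MLX did among the short ones.

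Motif results are given for the 9 members other than MAX. Promoter sequences are shown for the 3 of these 9 whose window from 250 bases before to 50 bases after the canonical start holds an E-box, and for MYCN as a CpG-rich start with no peak. All are the 250 bases before the start in GRCh37 (hg19), read 5′ to 3′ in the direction of the gene: MXD4 at chr4:2263837-2264086 on the minus strand, MNT at chr17:2304355-2304604 on the minus strand, MLX at chr17:40718868-40719117 on the plus strand and MYCN at chr2:16080422-16080671 on the plus strand. Capitals mark exact matches on either strand to CACGTG (E-box), GGGCGG (GC box) and CCAAT (bound by NF-Y).
MXD4: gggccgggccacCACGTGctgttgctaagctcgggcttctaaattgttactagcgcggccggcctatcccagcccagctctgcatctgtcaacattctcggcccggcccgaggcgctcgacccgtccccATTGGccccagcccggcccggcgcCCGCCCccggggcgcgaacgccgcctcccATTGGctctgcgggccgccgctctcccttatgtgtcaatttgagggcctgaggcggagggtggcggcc
MNT: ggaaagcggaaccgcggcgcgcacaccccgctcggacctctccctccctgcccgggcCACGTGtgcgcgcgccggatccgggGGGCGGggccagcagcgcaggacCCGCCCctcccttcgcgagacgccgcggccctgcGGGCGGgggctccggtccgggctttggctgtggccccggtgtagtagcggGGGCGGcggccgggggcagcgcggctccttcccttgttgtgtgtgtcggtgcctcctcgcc
MLX: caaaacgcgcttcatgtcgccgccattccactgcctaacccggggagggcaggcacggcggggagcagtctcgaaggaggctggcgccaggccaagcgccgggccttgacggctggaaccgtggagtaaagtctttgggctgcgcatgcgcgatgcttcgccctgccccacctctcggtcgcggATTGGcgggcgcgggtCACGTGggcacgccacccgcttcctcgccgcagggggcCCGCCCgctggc
MYCN: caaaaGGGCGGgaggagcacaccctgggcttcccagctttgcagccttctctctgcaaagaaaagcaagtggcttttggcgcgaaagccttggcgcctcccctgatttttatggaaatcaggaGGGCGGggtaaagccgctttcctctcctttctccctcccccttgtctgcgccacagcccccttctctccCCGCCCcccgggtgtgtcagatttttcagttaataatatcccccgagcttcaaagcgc

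The E-box stood 50 bases before the start in MLX, and further out in MNT (193 bases) and MXD4 (238 bases). MYCL, MXI1, MXD1 and MXD3, whose starts were also under a peak, held no E-box in this window, and neither did MYC and MYCN. An E-box in this window of 300 bases was held by 8.77% of 19861 coding promoters, by 10.6% of CpG-rich promoters and by 10.8% of those whose start was under a peak. GC boxes occurred at all 9 of these members and at 83.3% of CpG-rich promoters. CCAAT occurred at MXD1, MXD4 and MLX, against 36.0% of all promoters. The element CACGCG, an E-box variant held by 15.3% of promoters, the ETS element CCGGAAG, held by 14.2%, and the AP-1 element TGANTCA, held by 5.41%, occurred at none of the 9. MYCN held GC boxes 245, 127 and 58 bases before its start and none of the other motifs. A match describes these letters in this window and is not a binding site.

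Among the 7 peaks over the starts of these members, every one held at least 1 E-box, 11 in all. The 11 sites are shown in the direction of each gene with 10 bases on either side, the E-box in capitals, and with the distance of its first base from the canonical start.
MYCL at 1139 bases after the start: gtctgtctggCACGTGggtgtgttgg
MXI1 at 1412 bases after the start: cccccagattCACGTGgatagtagtg
MXD1 at 1831 bases before the start: tcagtttcttCACGTGcaaaatgtaa
MXD1 at 824 bases before the start: ccgcagcagcCACGTGgcgcctgccc
MXD3 at 383 bases before the start: ccgcggcaccCACGTGcagcggctgg
MXD4 at 2576 bases after the start: actacagaccCACGTGgccaggctgc
MXD4 at 238 bases before the start: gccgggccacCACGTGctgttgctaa
MNT at 1326 bases after the start: cgcccccgacCACGTGcaccggggac
MNT at 415 bases after the start: caacagagagCACGTGgtgagcggcc
MNT at 193 bases before the start: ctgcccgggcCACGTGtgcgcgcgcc
MLX at 50 bases before the start: gggcgcgggtCACGTGggcacgccac

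Of these 11 sites, 5 lay within 500 bases of the start, at MXD3, MXD4, MNT and MLX. Among all 9404 peaks over a coding gene's canonical start, 37.2% held an E-box, and the density was 0.443 per kb under the 7 start peaks against 0.225 per kb under all of them. The 7 start peaks were wide, with a median of 3497 bp against 1932 bp for all start peaks. In peaks over starts within the same range of width, 1865 to 5850 bp, 44.8% of 4560 held an E-box, at 0.228 per kb. The median width of these 4560 peaks was 2528.5 bp, so the 7 start peaks were still the wider ones. In the 500 bp around the peak midpoint 3 of the 7 peaks and 12.3% of all start peaks held one. Counting over whole peaks and around midpoints was a choice made once the data had been seen. Of the 11 other peaks in these genes 3 held an E-box, or 27.3%, against 27.5% of all peaks that lay in coding genes away from canonical starts.

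**Figure D2:**
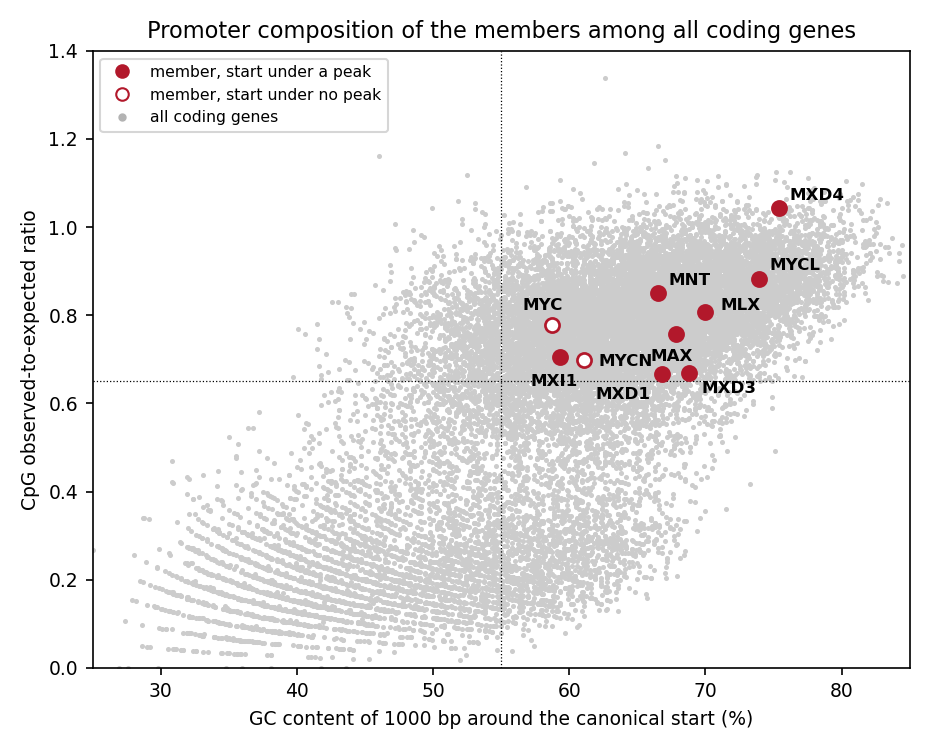
GC content (%) and CpG observed-to-expected ratio of the 1000 bp around the canonical start, for each member (red, filled where the start was under a peak) and for all coding genes (grey points, a few of which fall outside the axes). Dotted lines are the limits of the CpG-rich class; all 10 members fall inside it, the 2 without a peak included.

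The MYC family split into MYCL, with a low-ranking start peak, and MYC and MYCN, with no peak in the gene. MYCL, the family member first found in small cell lung cancer (hg19 chromosome 1, 40361100 to 40367928, minus strand), had 1 peak of 2399 bp at 40365946 to 40368344. Its score was 160.81, above 43.6% of all peaks. This peak reached from 755 bp before the canonical start to 1643 bp after it, covered all 3 annotated start positions and spread over exon 1 into the intron. On either side the nearest peaks covered the starts of other genes. At lower coordinates the peak at TRIT1, a tRNA-modifying enzyme, lay 11451 bp away with a score of 567.0, and at higher coordinates the peak at MFSD2A, a lysolipid transporter, lay 52360 bp away with a score of 119.05.

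MYCN, the paralog amplified in neuroblastoma and in some neuroendocrine prostate tumours (chromosome 2, 16080672 to 16087129, plus strand), lay in a long stretch free of peaks. The nearest peak at lower coordinates was 347835 bp away over the start of DDX1, an RNA helicase gene (15731094 to 15732837, score 644.81). The nearest at higher coordinates was 1714224 bp away inside VSNL1, a neuronal calcium sensor gene, with a score of 52.07. The stretch between them measured 2068515 bp, and 211 of 20086 gaps between neighbouring peaks (1.05%) were longer, the median gap being 23619.5 bp. It contained 3 whole coding genes, MYCN, CYRIA and RAD51AP2. Of all canonical starts 6.49% lay at least as far from a peak as that of MYCN, and of CpG-rich starts 2.96% did.

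MYC itself (chromosome 8, 128747680 to 128755197, plus strand) had no peak at any of its 14 annotated start positions. Its canonical start was 66831 bp from the nearest peak, a distance reached or exceeded by 23.3% of all canonical starts and by 12.3% of CpG-rich ones. The nearest peak at lower coordinates was 66034 bp from the gene and low in the list, with a score of 61.09 and a width of 1108 bp. The distance rests on this peak. Among peaks with a score of at least 100 the nearest at lower coordinates lay 2294322 bp from the gene. The nearest at higher coordinates stayed at 99148 bp and was then the closest on either side. The shares of starts as far from a peak were not recomputed under this limit. At higher coordinates a peak of 7698 bp lay 99148 bp away over PVT1, the long non-coding RNA gene that follows MYC, with a score of 173.4 (128854345 to 128862042). The stretch free of peaks between these flanks, 172698 bp, was shorter than 15.9% of all gaps and held no other coding gene.

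Within 1 Mb of the MYC start there were 9 peaks, against a median of 21 around all canonical starts. Of all canonical starts 24.0% had as few peaks within 1 Mb or fewer. Of the 9 peaks 1 lay upstream and 8 downstream, and 7 of the downstream ones overlapped PVT1. The highest score among them was 358.3, at a peak of 6355 bp centred 116.8 kb downstream of the MYC start (128862086 to 128868440). That peak, the 7698 bp peak beside it and the peak centred at 291.7 kb covered annotated starts of PVT1 transcripts. Which of the PVT1 starts these were, and whether its main promoter had a peak, was not examined. The other peaks over PVT1 were centred 187.1, 281.5, 291.7, 367.2 and 440.7 kb downstream, with scores of 57.78, 68.69, 60.18, 215.52 and 141.46. The remaining downstream peak, centred at 692.0 kb with a score of 81.24, lay over LINC00824, another non-coding RNA gene. Around MYCN 2 peaks lay within 1 Mb and around MYCL 35, with as few or fewer at 4.24% and 66.8% of canonical starts.

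**Figure D3:**
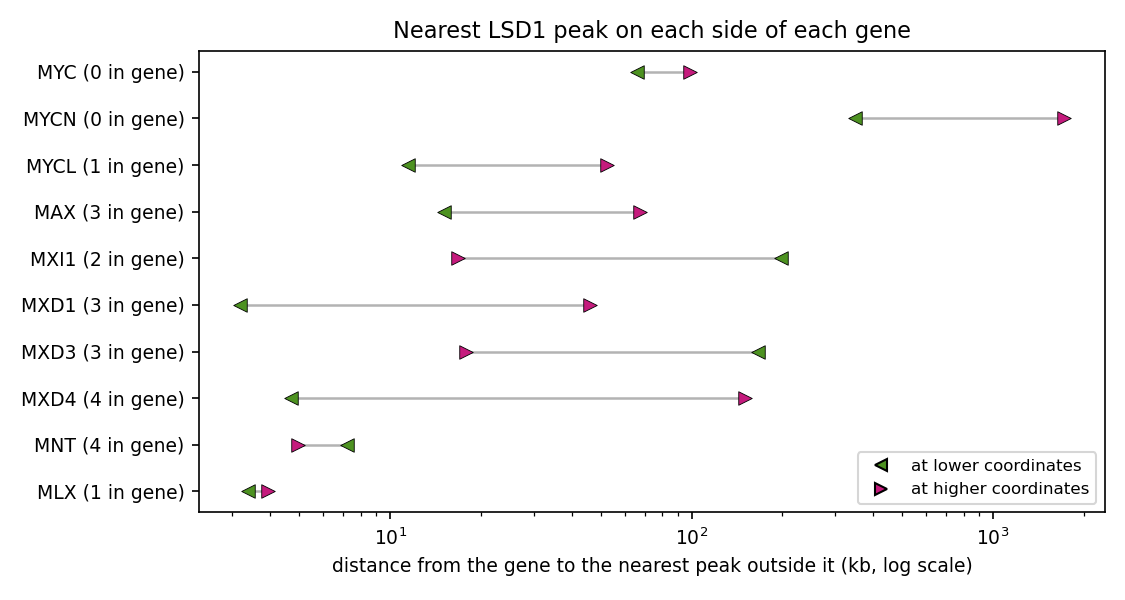
Distance in kb (log scale) from each gene to the nearest peak outside it at lower (green) and higher (pink) coordinates, with the number of peaks in the gene beside its name. MYCN has the farthest peak on both sides, at 347835 and 1714224 bp, and MLX has peaks within 3386 and 3929 bp.

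MAX, the shared partner of the MYC, MXD and MNT proteins (chromosome 14, 65472892 to 65569413, minus strand), carried a strong start peak and a weaker pair further in. The start peak of 2599 bp (65568111 to 65570709) scored 1022.87, above 89.7% of all peaks. It reached 1474 bp upstream and 1124 bp downstream of the canonical start, covered exons 1 and 2, and held all 14 annotated start positions of the gene. The other peaks, of 4702 bp with a score of 191.59 and of 1923 bp with a score of 103.56, were separated by 241 bp. They were centred 28916 and 32469 bp downstream of the start, inside the annotated gene but beyond the end of the canonical transcript. The wider of them overlapped 826 bp of the last exon of that transcript, all of it untranslated. The narrower one lay wholly beyond it. Their GC content was 47.4% and 54.2%, against 57.4% in the start peak. The flanking peaks, 15053 bp away in FNTB, a farnesyltransferase subunit gene, and 67416 bp away between genes, scored 132.89 and 104.24.

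The MXD genes, which encode the MAX-binding repressors, all had a peak over the canonical start, and together they held 12 of the 21 peaks in member genes. MXD1 (chromosome 2, 70124820 to 70170077, plus strand) had the highest start peak among them, 3497 bp with a score of 1844.26, above 96.6% of all peaks (70140305 to 70143801). It covered exons 1 and 2 and reached 1936 bp upstream of the start. A second MXD1 peak, 871 bp further on in intron 2, scored 57.14, and a peak scoring 115.36 touched the last 75 bp of the gene. The nearest peaks outside the gene lay 3183 bp away over the start of the small nuclear ribonucleoprotein gene SNRNP27 (score 139.58) and 45980 bp away in PCBP1-AS1 (score 98.07).

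MXI1, also called MXD2 (chromosome 10, 111967363 to 112047123, plus strand), had a peak at each of its 2 main groups of start sites. The peak over the canonical start was 4877 bp wide with a score of 1456.79 (111966860 to 111971736), and it ran 4373 bp into the gene over exon 1 and part of intron 1. The second, 1895 bp wide with a score of 580.73 (111985311 to 111987205), was centred 18895 bp downstream and covered further annotated MXI1 starts. Of 37 annotated start positions 29 were under these peaks. The second had the higher GC content of the pair, 70.3% against 58.0%. The flanking peaks were at the starts of ADD3, which encodes a membrane skeleton protein, 198308 bp away (score 175.7), and of the splicing factor gene SMNDC1, 16811 bp away (score 359.29).

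MXD4 (chromosome 4, 2249159 to 2263836, minus strand) combined a wide start peak with 3 low ones towards its 3′ end. The start peak of 5850 bp (2260284 to 2266133) scored 1070.22, above 90.4% of all peaks, and was the widest among the members' start peaks. The others, centred 9608, 12021 and 14483 bp downstream of the start, scored 51.4, 71.15 and 107.61 and had their midpoints in exons 4, 6 and 6, the last being the final exon. The middle one also covered the start of MIR4800, a microRNA gene. The nearest peak at lower coordinates was 4677 bp away and covered the starts of POLN, a DNA polymerase gene, and HAUS3, a spindle subunit gene (score 255.75). The other flank, in ZFYVE28, was 149981 bp away (score 450.35).

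MXD3 (chromosome 5, 176728462 to 176739758, minus strand) stood apart from the other MXD genes in that its start peak was not its highest. The peak over the canonical start, 2011 bp wide, scored 157.76, above 43.0% of all peaks (176738400 to 176740410). A peak of 1908 bp over exons 5 and 6 scored 1215.17 (176733624 to 176735531) and covered the start of 1 MXD3 transcript annotated as a retained intron. Only 36 bp separated it from a peak of 8425 bp with a score of 968.59 (176725163 to 176733587), which covered the starts of the neighbouring genes RAB24, a small GTPase gene, and PRELID1, a mitochondrial lipid transfer gene. Of this wide peak 60.8% lay inside the annotated MXD3 span, so peaks in the 3′ part of MXD3 cannot be told apart from peaks of these neighbours. Peaks covered 74.3% of the MXD3 span in all, or 8393 bp. Of these, 5126 bp came from the wide peak, which lay wholly beyond the end of the canonical MXD3 transcript. The flanking peaks were at the start of NSD1, a histone methyltransferase gene, 165798 bp away (score 794.06), and 17895 bp away in LMAN2 (score 53.09).

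MNT, the broadly expressed repressor partner of MAX (chromosome 17, 2287367 to 2304398, minus strand), had the highest-scoring peak of the network. This start peak of 4328 bp (2301974 to 2306301) scored 2515.66, above 98.3% of all peaks, and reached 1947 bp upstream and 2380 bp downstream of the canonical start. A peak of 928 bp in intron 1 scored 63.46 and a peak of 3540 bp over exons 3 and 4 scored 433.35. Both covered starts of further annotated MNT transcripts. A peak of 4975 bp with a score of 448.1 overlapped only 230 bp of MNT at its 3′ end and otherwise lay in the neighbouring gene SGSM2. MNT had 11 peaks within 100 kb of its start, against a median of 3 around all canonical starts. The flanking peaks, 7199 bp away in SGSM2 and 4941 bp away in METTL16, an RNA methyltransferase gene, scored 140.63 and 115.02.

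A single peak marked MLX (chromosome 17, 40719090 to 40725257, plus strand), at its start, among close neighbours with start peaks of their own. The MLX peak of 1865 bp (40718323 to 40720187) scored 369.65, above the median of 205.87 of all peaks, and covered all 9 annotated start positions. The peak over COASY, a gene of coenzyme A synthesis, lay 3386 bp away with a score of 559.6, and the peak over PSMC3IP, a gene of meiotic recombination, lay 3929 bp away with a score of 345.04. Of all members MLX had the most peaks within 100 kb of its start, 13.

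Across the members most start peaks ranked above the other peaks in the genes, MXD3 being the exception within a gene. The 8 start peaks had a median score of 1046.545, from 157.76 at MXD3 to 2515.66 at MNT, and the 13 others had a median of 115.36, from 51.4 to 1215.17. Over all coding genes the corresponding medians were 450.245 for 9404 peaks over canonical starts and 98.8 for 7225 other peaks in genes. The median of 450.245 covers CpG-rich and CpG-poor starts and peaks of any width. The 8 member starts were all CpG-rich, and their peaks had a median width of 3048 bp against 1932 bp for all start peaks. The start peaks of MNT, MXD1, MXI1, MXD4 and MAX exceeded 818.09, the upper quartile of all start peaks, MLX lay below their median, and MYCL and MXD3 lay below their lower quartile of 224.73. Of the 20 flanking peaks, with a median score of 157.015, 10 covered the canonical start of another coding gene.

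**Figure D4:**
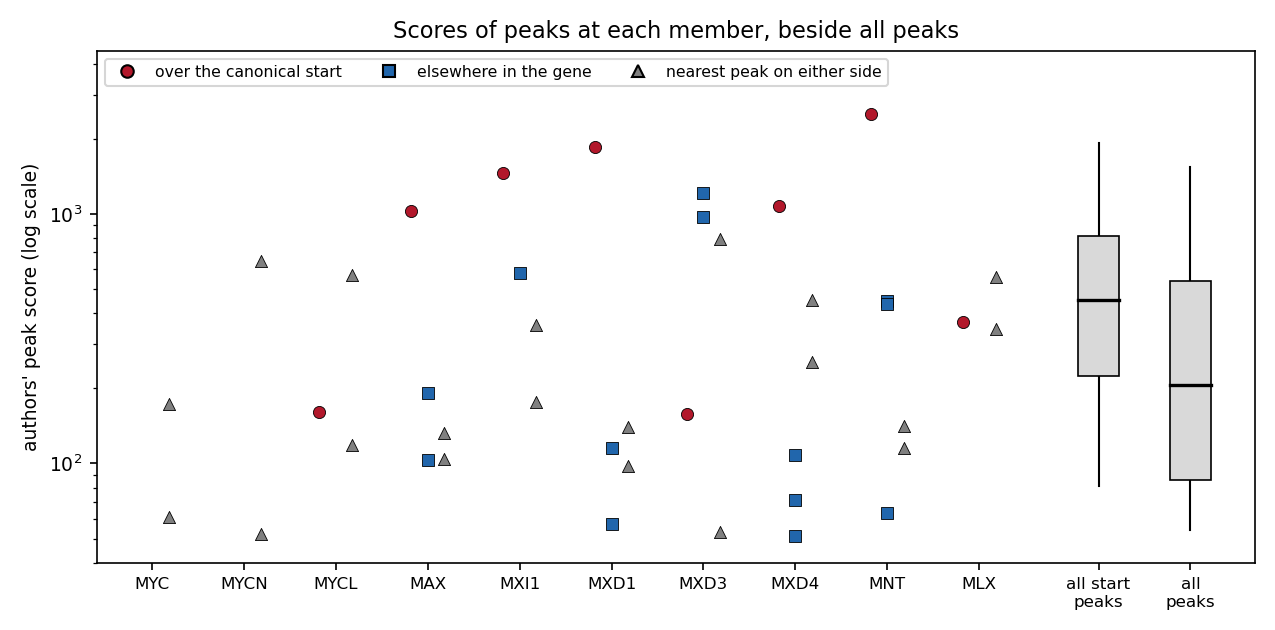
Authors' peak score (log scale) of every peak at each member, over the canonical start (red circles), elsewhere in the gene (blue squares) or nearest on either side (grey triangles), beside all start peaks and all peaks (box, quartiles with the median; line, percentiles 5 to 95). The start peaks of MNT, MXD1, MXI1, MXD4 and MAX lie above the box of all start peaks, and MYC and MYCN have flanking peaks only.

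Genes that act with the network, MYC target genes and genes of other E-box factors were read from 6 lists. Of the listed genes 95 had a canonical start in the annotation. Of these 87 (91.6%) had the start under a peak, against 54.3% of all coding genes and 75.9% of CpG-rich starts, and the median score of these peaks was 679.09. The SIN3 corepressor genes, through which MXD proteins and MNT repress, had a start peak at 16 of 16, with scores led by BRMS1L, a subunit of the complex (1661.9), SIN3A, its scaffold (1441.93), and ING1, a reader of methylated histone tails (1407.23). The genes of MYC turnover also had one at 16 of 16, with 3100 at GSK3B, the kinase that marks MYC for degradation, and at STUB1, a ubiquitin ligase, and 1543.95 at USP36, a deubiquitinase. FBXW7, which encodes the ubiquitin ligase subunit that recognises the marked protein, had 872.78. The start peaks of this list had a median score of 529.75 and went down to 60.47, above 10.7% of all peaks.

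MYC cofactor genes had a start peak at 17 of 18. HCFC1, a chromatin adaptor, led with 1955.1, followed by CCNT1 (1710.58) and CDK9 (1017.54), which together form the elongation factor P-TEFb. KAT2A, a histone acetyltransferase gene with a CpG-poor start, had none. All 15 genes of this list with a CpG-rich start had a start peak. Genes of other E-box factors had one at 12 of 14, led by the transcription factor genes TFAP4 (2947.72), USF2 (2351.53) and SREBF1, a regulator of lipid synthesis (2162.54), with none at TFEB, a regulator of lysosomal genes, and TFEC. A peak edge lay 552 bp from the TFEB start, which was CpG-rich, while that of TFEC was CpG-poor. Among MYC target genes 25 of 29 had a start peak. Those over SHMT2 (16437 bp, score 100.83), NPM1 (15549 bp), IMPDH2 (10543 bp), CDK4 (9206 bp), RCC1 (9061 bp) and EIF4A1 (8936 bp) were among the widest 1% of all peaks. Without that 1%, the genes of all lists with a start peak fell from 87 to 80. A score of 3100, which does not rank the peaks that share it, was found at EIF4A1, a translation helicase, IMPDH2, an enzyme of guanine nucleotide synthesis, PTMA, which encodes prothymosin alpha, and RCC1, the exchange factor of Ran. The cell cycle genes CCND2, E2F1 and CDC25A and the telomerase gene TERT had no start peak. Of their starts only that of CCND2 was CpG-poor. Some targets share 1 peak at a common promoter, HSPD1 with HSPE1 (1560.04) and PAICS with PPAT (947.34), so the genes are not independent counts. Of the other network genes, MGA, whose protein pairs with MAX, had a start peak with a score of 181.88 and MLXIPL had none, the nearest peak edge being 42740 bp away. MLXIP had no canonical start in the mapped annotation. It was overlapped by 2 peaks, the higher with a score of 817.3, and 1 of its 11 annotated starts was under a peak. The members and lists were chosen knowing earlier results of these data, so the shares describe them and do not set them apart from other genes.

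**Figure D5:**
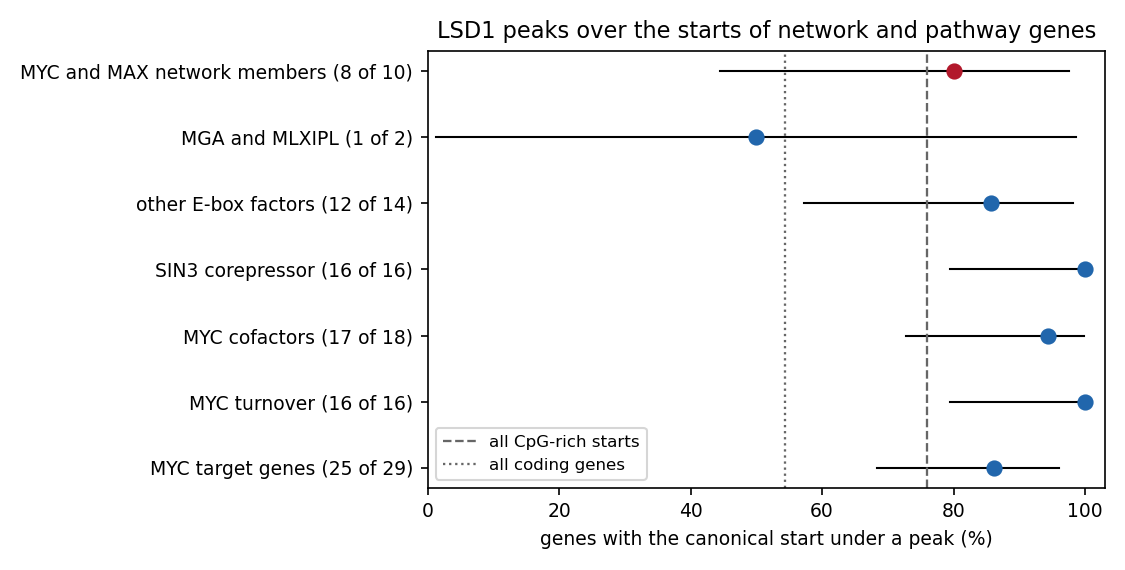
Share of genes (%) with the canonical start under a peak, for the network members (red) and for the pathway lists (blue), with exact binomial intervals at 95% that cover counting error only. The dashed line is the share among all CpG-rich starts, 75.9%, and the dotted line that among all coding genes, 54.3%; the members' interval spans both lines.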

How the data were processed

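LSD1 ChIP and input DNA were sequenced from PC-3M-luc cells, 1 library each. Bowtie 2 aligned the reads to hg19, per the labels' protocols. MACS 1.41 appears in the submitters' processing notes, as do the builds hg19 and mm10, of which only hg19 was used. Caller settings, threshold and depth are not given in the sources used here. The 1 deposited file lists positions with a score per peak, read here as LSD1 peaks over input. All 24 chromosome names occur in GRCh37 and 0 peaks run past a chromosome end.

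Genes and starts came from GENCODE 44 mapped to GRCh37, and coordinates are 1-based. Starts with unsequenced bases within 500 bp were left out (20). Background shares were counted over all protein-coding genes. Intervals are exact Clopper-Pearson. The members and lists were chosen with earlier results of these data known. Named genes were all members, the genes at flanking peaks, and in each list up to 3 with the highest-scoring start peak and those without one (5 or fewer). FBXW7, MLXIP, the shared promoters, a tie of 4 and the target genes with the widest peaks were added after their values were seen. 2 listed genes had no canonical start in the mapped annotation and were left out of the shares. Motifs at MAX are not reported here. Overlap and motif counts were tested on simulated data. Alternatives were score limits, removal of the widest 1% of peaks, and other spans, overlaps and windows. Software was pysam 0.24.0, scipy 1.17.1, pandas 2.3.3, numpy 2.4.6 and matplotlib 3.10.9 under Python 3.11.15.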

Additional observations from a re-analysis of the deposited data

How the results depend on the processing

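No paired analysis was possible because the ChIP and the input were 1 library each. Under the limits on score and width and the other spans, overlaps and start definitions tried, the members with a peak in the gene numbered 7 to 8, those with the canonical start under a peak 6 to 8 and those with a midpoint within 1 kb of a start 7 to 8, and the listed pathway genes with a start peak 77 to 88. Of the 9 members with motif results, 4 held an E-box within 500 bases of the start instead of 3 in the promoter window, the wider span having been added after the data were seen. Peaks in member genes numbered 11 instead of 21 when only scores at or above the median of 205.87 were kept, which holds fewer peaks by construction. The starts of MYCL and MXD3 then had no peak and 6 members kept theirs. In the 500 bp around midpoints, a shorter window also added later, 3 of the 7 start peaks of these members held an E-box. Of 60 distances to flanking peaks recomputed under alternatives, likewise added later, 16 moved and 44 did not. With scores of at least 100 the nearest peak at higher coordinates from MYCN lay 1846996 bp away instead of 1714224 bp. Of 24 highest scores recomputed, 1 moved, at MLX, to 559.6 with the gene extended by 5 kb, which reaches the COASY peak. With 1 library and unknown depth, weak peaks near the threshold are the least certain.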
